A study of Sus scrofa with 36 samples.

Results

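Antigen presentation by CD1 and MHC molecules was followed in the subcutaneous fat of pigs through 5 genes, PCD1A, CD74, TAP1, TAP2 and CIITA, chosen by gene symbol. Of these, 3 were matched to one of the 12253 genes of the RNA-Seq table, namely PCD1A (ENSSSCG00000025644), TAP2 (ENSSSCG00000025593) and CIITA (ENSSSCG00000007901), and CD74 and TAP1 were not analysed here. The 36 animals came from an F2 intercross of Duroc sows with Göttingen minipig boars and were sorted by the Obesity Index, an aggregate genetic value for fatness. They fell into 12 lean pigs (Low, 7 males and 5 females), 12 intermediate pigs (Mean, 6 males and 6 females) and 12 obese pigs (High, 6 males and 6 females), with no treatment in any group. Each pig gave 1 library. The pigs were slaughtered at a similar weight and the lean pigs were the oldest, so group and age at slaughter cannot be told apart, and full sibs and sequencing lanes could not be assigned to single pigs. Between 8735839 and 11755925 reads per pig were recovered over the listed genes (median 10496910), and no gene in the table had fewer than 6 reads in a pig.

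Cells show antigens to T cells on 3 kinds of molecule. MHC class I molecules carry peptides that the TAP transporter, a pair of the TAP1 and TAP2 chains, has pumped from the cytosol into the endoplasmic reticulum. MHC class II molecules carry peptides from material taken up into endosomes. Their genes are transcribed under CIITA, the class II transactivator, which interferon gamma induces, and CD74 is the invariant chain that guards the binding groove. CD1 molecules carry lipids in place of peptides, and PCD1A is a pig CD1 gene. In fat, macrophages and dendritic cells are the best known presenting cells. CD1 and swine MHC (SLA) genes belong to families with near-identical copies, so reads of PCD1A and of the SLA genes below may be shared with copies that are not seen here. In RefSeq gene order TAP2 lies inside the MHC region, between SLA-DOB and PSMB8 with TAP1 next to them, and CIITA lies close to SOCS1 and CLEC16A.

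The labelled tissue was seen in all 36 libraries. The 5 measured adipocyte markers, CIDEC, LIPE, PLIN1, PNPLA2 and PPARG, summed to between 27887 and 84349 normalized counts in every pig, a normalized count being the recovered reads divided by the size factor of the library. The 5 measured macrophage markers, C1QA, CD68, CSF1R, MRC1 and MSR1, summed to 1598 to 8419 in the lean, 2219 to 8268 in the intermediate and 3625 to 9490 in the obese pigs. A total of 4 obese pigs stood apart from all others. They are obese replicates 1, 2 and 3, which are females, and obese replicate 6, a male. Their summed level of 8 genes of the interferon gamma axis (among them receptor and kinase genes and interferon targets) was 5491 to 10868, while that of the other 32 pigs was at most 4481. IRF1, a transcription factor induced by interferons, was at 895 to 2157 normalized counts in these 4 pigs and at 174 to 859 in the others. Other genes of the axis overlapped. GBP1 was at 58.1 to 151 in the 4 pigs and at 22.4 to 159 in the others, and GBP2 at 522 to 2624 and at 183 to 792. Markers of T or NK cells (CD2, CD8A, GNLY, LCK and NKG7) summed to 1295 to 2335 in the 3 females, to 465 in the male and to at most 755 in the others. These pigs were found from the data and are not a group of the study. The genes of the interferon gamma axis chose these pigs, so the values of these genes with and without the 4 pigs are a description. The 4 pigs were picked as the obese pigs above every lean and intermediate pig in that sum. Fits of any other gene without them, CIITA among them, are thus also a description, whatever their p.

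PCD1A was scattered over a wide range in lean fat, and most lean pigs were below all obese pigs. In the lean pigs its normalized counts, in rising order, were 49.1, 64.9, 89.3, 99.5, 112, 182, 204, 236, 382, 544, 773 and 1227. In the intermediate pigs the lowest, median and highest were 78.5, 570 and 1060. In the obese pigs they were 271, 571 and 1372. The obese pigs were thus all above the lean median of 193, and 8 of the 12 lean pigs lay below the lowest obese pig, while 2 lay below the lowest intermediate pig, and lean replicate 2 (1227) and lean replicate 8 (773) were above the obese median. The group means were 330 ± 357 (SD, n = 12) in lean, 584 ± 310 (SD, n = 12) in intermediate and 635 ± 282 (SD, n = 12) in obese pigs. The spread of PCD1A over the 36 pigs, an SD of 1.27 on the log2 scale, exceeded that of 99.2% of the genes.

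TAP2 had its lowest mean in the lean and its highest in the obese group, with wide overlap. Its normalized counts were 27.2 at the lowest, 48.7 at the median and 94.1 at the highest in lean pigs. The intermediate pigs had 30.7, 61.4 and 159, and the obese pigs 24.9, 97.2 and 176. While 7 of the 12 obese pigs were above every lean pig, obese replicate 12 was below all of them. Means were 53.2 ± 19.9 (SD, n = 12), 66.6 ± 37.1 (SD, n = 12) and 96.4 ± 52.3 (SD, n = 12) in lean, intermediate and obese pigs.

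CIITA had no order over the groups. The lowest, median and highest normalized counts were 47.8, 85.7 and 147 in lean pigs, 47.5, 68.2 and 117 in intermediate pigs and 49.9, 73.8 and 272 in obese pigs. The obese pigs split. The 4 pigs with the high interferon gamma axis level had 272, 204, 143 and 144 in the order of their replicate numbers, and the other 8 had between 49.9 and 89.0. The means were 90.6 ± 26.5 (SD, n = 12), 71.9 ± 21.8 (SD, n = 12) and 108 ± 69.8 (SD, n = 12), so the high obese mean goes with the 4 pigs and the obese median was below that of the lean pigs. The plot of normalized counts by pig shows the 3 genes with these 4 pigs ringed.

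**Figure D1:**
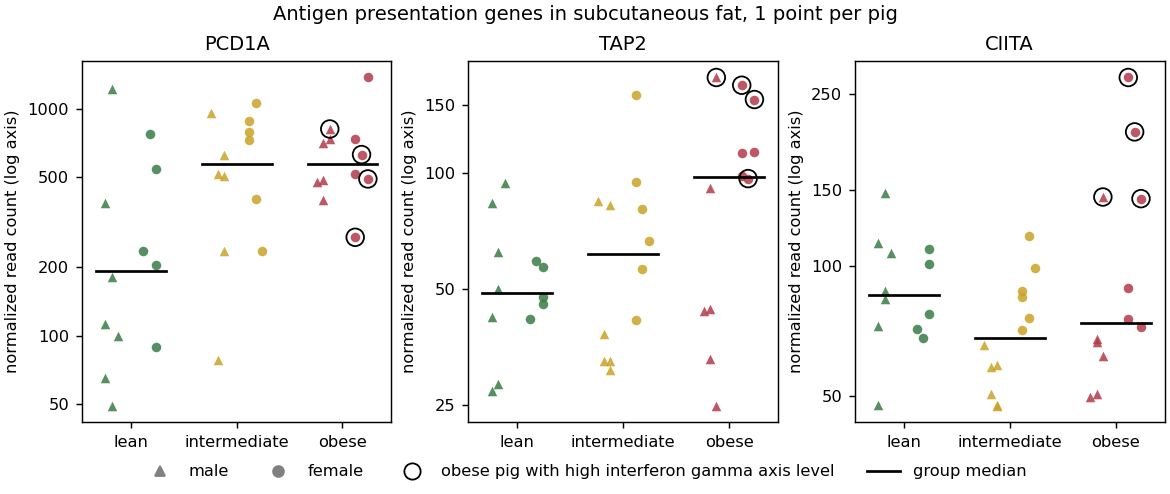
Normalized read counts (log axis) of PCD1A, TAP2 and CIITA in each pig by group, with males as triangles, females as circles, the group median as a line and the 4 obese pigs of high interferon gamma axis level ringed. The lean PCD1A values run from 49.1 to 1227, and the ringed pigs hold the 4 highest CIITA values of the obese group, 143 to 272.

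The groups were compared with limma on the log2 scale, over all 36 pigs and with sex in the model, and the p-values were adjusted by the Benjamini-Hochberg method over all 12253 genes. Of the 3 genes, 0 passed an adjusted p of 0.05 for obese against lean, where 0.0408% of all genes passed. At an unadjusted p under 0.05, 2 of the 3 were higher in obese pigs, where 6.81% of all genes were higher at that level and 14.7% differed in either direction. PCD1A was 1.46 ± 0.43 (SE) higher in obese than in lean pigs on the log2 scale, a 2.74-fold difference (p = 0.0017, adjusted p = 0.10). The authors had picked PCD1A from these same pigs in part for its difference between obese and lean pigs. Its p here is therefore not independent of that choice. The call of PCD1A changed with 2 of the lean pigs. Without lean replicate 2 the difference was 1.71 (adjusted p = 0.018), where 2.38% of all genes passed. Without lean replicate 8 it was 1.62 (adjusted p = 0.044), where 1.66% passed. With the 4 obese pigs that stood apart left out it was a 3.04-fold difference (adjusted p = 0.16). Over the 10 other settings tried its adjusted p ranged from 0.077 to 0.35. These lean pigs also had the highest macrophage marker sums of their group, 7739 and 8419 against 1598 to 5531 in the other lean pigs. The part of macrophage number in the PCD1A difference was not tested, and in whole tissue fewer cells of a type and less RNA per cell cannot be told apart.

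TAP2 was 0.63 ± 0.27 (SE) higher in obese than in lean pigs on the log2 scale (p = 0.028, adjusted p = 0.27), and without the 4 obese pigs the difference was 0.26 ± 0.28 (SE, adjusted p = 0.71). CIITA was 0.03 ± 0.21 (SE) higher (adjusted p = 0.97), with a 95% confidence interval from -0.40 to 0.46. Without the 4 obese pigs the sign turned, to -0.43 ± 0.16 (SE, p = 0.012, adjusted p = 0.25). These 4 were also the obese pigs with the highest CIITA levels, so this fit is a description. The sign for CIITA also turned when any one of 8 pigs was left out, lean replicates 1, 8, 10 and 12 and obese replicates 1, 2, 3 and 6.

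For intermediate against lean pigs, 0 of the 3 genes passed, as did 0% of all genes, and PCD1A alone had an unadjusted p under 0.05, a level reached by 12.5% of all genes, 5.71% as higher and 6.81% as lower. PCD1A was 1.16 ± 0.43 (SE) higher in intermediate than in lean pigs on the log2 scale (p = 0.010, adjusted p = 0.28). The differences of TAP2 and CIITA were 0.16 ± 0.27 (SE) and -0.39 ± 0.21 (SE), with adjusted p of 0.84 and 0.44, and that of TAP2 was 0.064 without intermediate replicate 1 and 0.26 without lean replicate 9. Between obese and intermediate pigs 0 of the 3 passed, as did 0% of all genes, and 0 had an unadjusted p under 0.05 against 4.28% of all genes, 2.06% higher and 2.22% lower. The differences there were 0.29 ± 0.43 (SE) for PCD1A, 0.47 ± 0.27 (SE) for TAP2 and 0.42 ± 0.21 (SE) for CIITA, and the last became -0.06 ± 0.16 (SE) without the 4 obese pigs. That of PCD1A was 0.067 without intermediate replicate 2, and 0.42 without obese replicate 1. A linear trend over the 3 groups had a slope per group step of 0.73 ± 0.22 (SE) for PCD1A, 0.31 ± 0.14 (SE) for TAP2 and 0.02 ± 0.11 (SE) for CIITA. None of the 3 passed for the trend (adjusted p = 0.10, 0.26 and 0.97 in this order), where 0.0245% of all genes did. The slopes of PCD1A and TAP2 had unadjusted p of 0.0018 and 0.027, so 2 of the 3 were under 0.05 with a positive slope, as were 6.75% of all genes, with 7.74% under it with a negative slope and 14.5% in either direction. Without lean replicate 2 the PCD1A slope was 0.85 (adjusted p = 0.021), where 2.24% of all genes passed. In the order of PCD1A levels, lean, intermediate and obese, no neighbouring groups differed past the threshold.

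All 3 genes were lower in males than in females by their fitted difference, with group in the model. Over all pigs TAP2 had a mean of 58.0 ± 37.3 (SD, n = 19) normalized counts in males and 87.7 ± 42.1 (SD, n = 17) in females, a log2 difference of -0.64 ± 0.22 (SE, p = 0.0072, adjusted p = 0.12). CIITA had 75.2 ± 31.4 (SD, n = 19) in males and 107 ± 54.5 (SD, n = 17) in females, a difference of -0.51 ± 0.17 (SE, p = 0.0059, adjusted p = 0.11). PCD1A differed by -0.51 ± 0.35 (SE, p = 0.15, adjusted p = 0.45). Of the 3 genes 0 passed, against 2.19% of all genes, and 2 had an unadjusted p under 0.05, a level that 18.3% of all genes reached, 8.01% as higher and 10.3% as lower in males. Since 3 of the 4 obese pigs that stood apart are females, the differences were also fitted without them, giving -0.59 ± 0.22 (SE) for TAP2 and -0.33 ± 0.13 (SE) for CIITA, with adjusted p of 0.29 and 0.31.

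Obese and lean pigs were also compared within each sex. For TAP2 the 6 obese females, at 96.5 to 168 normalized counts, were all above the 5 lean females, at 41.8 to 59.1, as were the obese females for 1.56% of all genes. The 3 obese females outside the set of 4 pigs were at 98.0, 112 and 113. In males the ranges overlapped, 24.9 to 176 in obese and 27.2 to 94.1 in lean pigs. Fitted within each sex, the obese minus lean difference of TAP2 was 1.21 ± 0.27 (SE, adjusted p = 0.072) in females and 0.14 ± 0.42 (SE, adjusted p = 0.93) in males. At an unadjusted p under 0.05, 5.83% of all genes were higher and 9.88% lower in obese females, 15.7% in either direction. The test of that contrast between the sexes, the sex by group interaction, gave -1.07 ± 0.53 (SE, p = 0.052, adjusted p = 0.39). For CIITA the difference was 0.51 ± 0.32 (SE) in females and -0.36 ± 0.24 (SE) in males, with an interaction of -0.88 ± 0.41 (SE, p = 0.038, adjusted p = 0.36). Without the 4 obese pigs the interaction was -0.34 ± 0.30 (SE, p = 0.28) for CIITA and -1.16 ± 0.55 (SE, p = 0.042, adjusted p = 0.35) for TAP2, where the median of all genes was 0.17. PCD1A was 1.85 ± 0.64 (SE) higher in obese males than in lean males and 1.01 ± 0.51 (SE) higher in obese than in lean females. In males, 6 of the 7 lean pigs were below the lowest obese pig for this gene. Its interaction was 0.84 ± 0.87 (SE, p = 0.34), and was 0.49 without lean replicate 8 and 1.34 without lean replicate 2. None of the 3 passed the interaction after adjustment, against 0.00816% of all genes, and at an unadjusted p under 0.05 it was 1 of 3 against 12.9%, of which 9.95% had a positive and 2.92% a negative interaction. That imbalance was not the same in all fits, and its cause was not tested. Without the 4 obese pigs the shares were 12.4% and 1.19%. With the whole size factor in place of the deposited scale, over all pigs, the shares were 6.48% and 5.41%. The median interaction of all genes was then 0.0041 in place of 0.086. On that scale the interaction was -0.96 ± 0.39 (SE, p = 0.020) for CIITA and -1.15 ± 0.53 (SE, p = 0.037, adjusted p = 0.39) for TAP2, so 2 of the 3 genes were under 0.05, against 11.9% of all genes. For CIITA all 6 intermediate males, at 47.5 to 65.5, were below all 6 intermediate females, at 71.0 to 117, as were the males for 0.18% of all genes. These were the 2 of 27 splits, 9 by sex and group for each of the 3 genes, in which the values did not overlap. The plot of fitted differences gives the intervals.

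**Figure D2:**
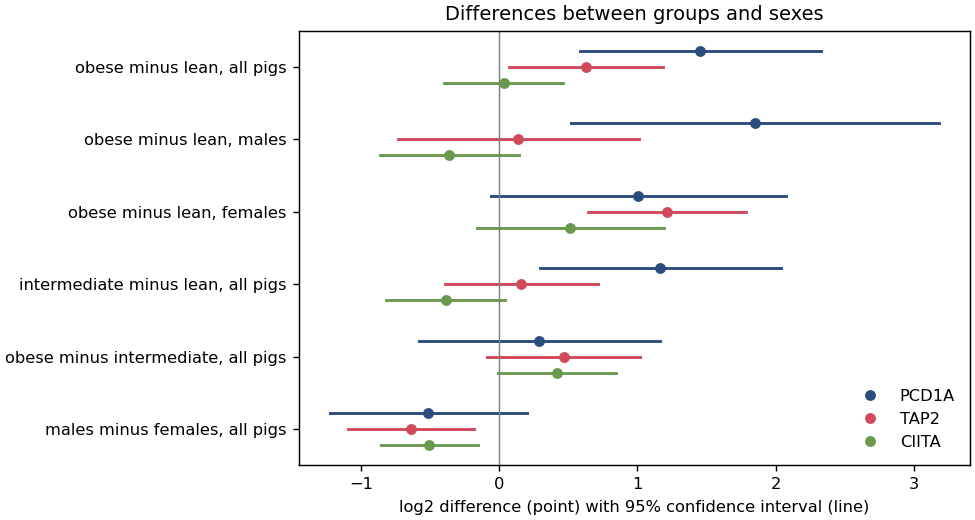
Fitted log2 differences (points) and 95% confidence intervals (lines) of PCD1A, TAP2 and CIITA for the 3 group comparisons, for obese against lean within each sex and for males against females. The interval of PCD1A for obese minus lean in all pigs runs from 0.58 to 2.33, and that of CIITA, from -0.40 to 0.46, spans 0.

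The other genes of the 3 presentation routes were followed by lists. None of the listed genes passed for obese against lean, so the counts below are at an unadjusted p under 0.05, which 6.81% of all genes reached as higher and 7.88% as lower, and the median log2 difference of all genes was -0.01. In the MHC class II list, 8 of the 15 genes with a row were higher in obese pigs and 1 was lower, with a median difference of 0.45. The leading genes were endosomal proteases that cut antigens and the invariant chain. LGMN, an asparaginyl endopeptidase, had means of 4502 ± 1843 (SD, n = 12) normalized counts in lean and 7318 ± 1929 (SD, n = 12) in obese animals and differed by 0.73 ± 0.20 (SE, adjusted p = 0.077). CTSS, the cathepsin known for the last cut of the invariant chain, had 1449 ± 836 (SD, n = 12) in lean and 2748 ± 1232 (SD, n = 12) in obese pigs, a difference of 0.93 ± 0.30 (SE, adjusted p = 0.12). CTSH and CTSL, further cathepsins, differed by 0.65 ± 0.19 (SE, adjusted p = 0.095) and 0.88 ± 0.27 (SE, adjusted p = 0.11). HLA-DRA, the class II alpha chain under its human symbol, had 3480 ± 999 (SD, n = 12) in lean and 5325 ± 2766 (SD, n = 12) in obese pigs, a difference of 0.45 ± 0.19 (SE, p = 0.028, adjusted p = 0.27). In the 4 obese pigs it lay at 5745 to 10525, and in the other 8 at 2226 to 5590, and without the 4 pigs the difference was 0.07 ± 0.17 (SE, adjusted p = 0.89). Without them 5 of the 15 genes were higher and 1 was lower (median 0.18), where 4.85% and 8.81% of all genes were, 13.7% in either direction. The proteases kept their direction, at 0.62 ± 0.22 (SE) for LGMN, 0.84 ± 0.35 (SE) for CTSS, 0.66 ± 0.21 (SE) for CTSH and 0.71 ± 0.31 (SE) for CTSL, with adjusted p of 0.19 to 0.32. The lower gene was NFYC, a subunit of the NF-Y factor that binds class II promoters, with -0.20 ± 0.08 (SE, adjusted p = 0.23).

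In the MHC class I list 1 of 11 genes with a row was higher and 0 were lower, with a median of 0.15. That gene was ERAP1, a peptidase that trims peptides in the endoplasmic reticulum, at 0.36 ± 0.18 (SE, p = 0.049, adjusted p = 0.34). TAPBP (tapasin, which ties class I to the TAP transporter) differed by 0.30 ± 0.17 (SE), TAPBPL, its relative, by 0.17 ± 0.09 (SE) and SEC61A1, a subunit of the protein channel of the endoplasmic reticulum, by 0.14 ± 0.08 (SE), each at an unadjusted p above 0.05. The class I median without the 4 obese pigs was -0.01, 0 genes were higher and 2 were lower, ERAP2, another trimming peptidase, and PSME2, a subunit of a proteasome activator. ERAP1 was then at 0.09 ± 0.17 (SE) and TAPBP at -0.10 ± 0.10 (SE). In the list of CD1 and lipid antigen handling 1 of 7 genes was higher and 0 were lower, with a median of 0.17. It was PSAP, the precursor of the saposins that load lipids, at 0.22 ± 0.10 (SE, p = 0.038, adjusted p = 0.31). NPC2, a cholesterol carrier of lysosomes, AP3B1, a subunit of an adaptor that sorts proteins to lysosomes, and GM2A, the GM2 activator, differed by 0.15 ± 0.09, 0.14 ± 0.09 and 0.28 ± 0.19 (SE). CD1B, the other CD1 gene with a matched row, had means of 32.6 ± 18.0 (SD, n = 12) in lean and 43.9 ± 24.7 (SD, n = 12) in obese animals and differed by 0.34 ± 0.30 (SE, p = 0.27). Without the 4 pigs 0 of the 7 genes were higher or lower (median 0.10), with PSAP at 0.20 ± 0.12 (SE, p = 0.099).

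Of the interferon gamma axis 1 of 8 genes was higher and 0 were lower, with a median of 0.36. It was JAK2, a kinase of the interferon gamma receptor, at 0.40 ± 0.15 (SE, p = 0.013, adjusted p = 0.20). IRF1 and the guanylate-binding proteins GBP1 and GBP2 differed by 0.54 ± 0.32, 0.38 ± 0.24 and 0.44 ± 0.29 (SE). Without the 4 pigs their signs turned, to -0.26 ± 0.18, -0.04 ± 0.22 and -0.30 ± 0.15 (SE), the list median was -0.15 and JAK2 was at 0.30 ± 0.17 (SE, p = 0.086). Among 4 costimulatory genes 1 was higher and 0 were lower, with a median of -0.12. CD86, a ligand that T cells need beside the antigen, differed by 0.90 ± 0.30 (SE, p = 0.0053, adjusted p = 0.14), while ICAM1 (-0.31 ± 0.19, SE), CD80 (-0.22 ± 0.18, SE) and CD58 (-0.03 ± 0.09, SE) had lower fitted values at an unadjusted p above 0.05. Without the 4 pigs CD86 was at 0.74 ± 0.35 (SE, p = 0.041) and ICAM1 at -0.59 ± 0.19 (SE, p = 0.0036, adjusted p = 0.19). Of the macrophage markers 4 of 5 were higher (median 0.80), of the T or NK cell markers 1 of 5 (NKG7, median 0.61), of the fibroblast or progenitor markers 0 of 5 (median 0.18) and of the adipocyte markers 1 of 5 (CIDEC, median 0.10). Of the endothelial markers 0 of 3 were higher and 1, PECAM1, was lower (median -0.28). The dendritic cell and B cell lists had 1 matched gene each, CD209 at 0.95 ± 0.38 (SE) and CD22 at 0.85 ± 0.28 (SE), too few to follow these cells. Without the 4 pigs 5 of 5 macrophage markers were higher (median 0.76) and 0 of 5 T or NK cell markers (median -0.11), with 2 of 5 fibroblast markers (LUM and COL3A1) higher and 2 of 3 endothelial markers (PECAM1 and KDR) lower.

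By the list medians the intermediate pigs were the lowest group for class I. At an unadjusted p under 0.05, 0 of the 11 class I genes were higher and 2 were lower in intermediate than in lean pigs, ERAP2 at -0.69 ± 0.25 (SE) and TAPBPL at -0.22 ± 0.09 (SE), with a list median of -0.08, where 5.71% of all genes were higher and 6.81% lower. In obese against intermediate pigs 4 of 11 were higher and 0 lower (median 0.22), where 2.06% of all genes were higher and 2.22% lower. These were TAPBPL at 0.39 ± 0.09 (SE, p = 0.00024, adjusted p = 0.99), ERAP2, ERAP1 and TAPBP. Without the 4 obese pigs it was TAPBPL alone, at 0.23 ± 0.09 (SE, p = 0.013), with PSME2 lower and a median of 0.05, where 1.33% of all genes were higher and 2.1% lower, 3.43% in either direction. In the class II list the proteases LGMN, CTSS, CTSH and CTSB and SPPL2A, a protease that clears the invariant chain, were the 5 of 15 genes higher in intermediate than in lean pigs, and NFYB and NFYC were lower (median 0.19, against the same shares of all genes). The 4 higher in obese than in intermediate pigs were chains of class II molecules or of their relatives DM and DO, namely HLA-DRA, SLA-DMA, SLA-DMB and SLA-DOA (median 0.23), and 0 were higher without the 4 obese pigs. None of the 7 genes of CD1 and lipid antigen handling was under that level in either comparison.

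Between the sexes 4 genes of the presentation lists passed over all 36 pigs, all 4 lower in males, and none of the 4 passed without the 4 obese pigs that stood apart. These were 3 of 11 class I genes and 1 of 15 class II genes, against 1.23% of all genes that were lower in males. TAPBPL was -0.33 ± 0.08 (SE, adjusted p = 0.017). ERAP1 was -0.54 ± 0.15 (SE, adjusted p = 0.041), with means of 340 ± 102 (SD, n = 19) normalized counts in males and 509 ± 197 (SD, n = 17) in females. ERAP2, a second trimming peptidase, was -0.74 ± 0.20 (SE, adjusted p = 0.046). SLA-DOA, a chain of the class II modulator DO, was -0.72 ± 0.20 (SE, adjusted p = 0.044). The differences without the 4 obese pigs, 3 of them females, were -0.23 ± 0.07, -0.44 ± 0.14, -0.53 ± 0.17 and -0.63 ± 0.20 (SE), with unadjusted p of 0.0021 to 0.0041 and adjusted p of 0.15 to 0.20, and 0.498% of all genes passed. Markers of other cells also differed between the sexes. DCN, a fibroblast proteoglycan, was 0.62 ± 0.15 (SE, adjusted p = 0.022) higher in males, and the adipocyte lipases LIPE and PNPLA2 were -0.55 ± 0.11 (SE, adjusted p = 0.0053) and -0.37 ± 0.10 (SE, adjusted p = 0.048). At an unadjusted p under 0.05, 4 of 5 fibroblast or progenitor markers were higher in males and 1 was lower (median 0.62). The adipocyte list had 0 higher and 4 of 5 lower (median -0.33). At that level 8.01% of all genes were higher in males. The T or NK cell markers had unadjusted p under 0.05 and lower values in males for 5 of 5 genes (median -0.86), where 10.3% of all genes were lower at that level. Without the 4 pigs it was 3 of 5 (median -0.60) against 5.45%, with 5.64% higher and 11.1% in either direction, and DCN, LIPE and PNPLA2 had adjusted p of 0.097, 0.070 and 0.31. Their part in the lower presentation genes was not tested.

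**Figure D3:**
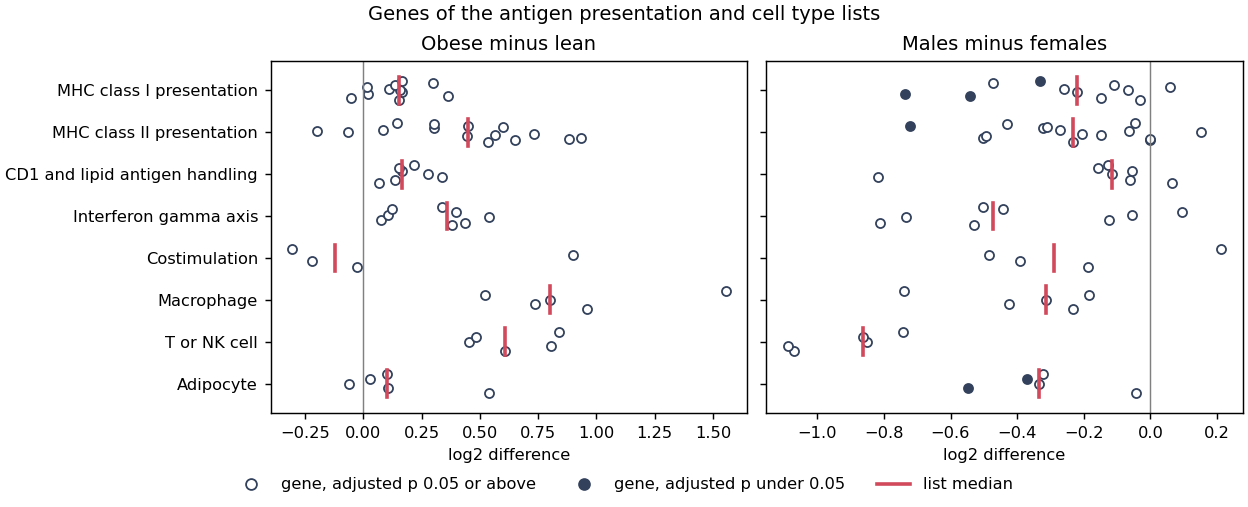
Log2 differences of the listed genes for obese minus lean pigs (left) and males minus females (right), 1 point per gene, filled where the adjusted p was under 0.05, with the list median as a red line. No point is filled for obese minus lean, where the class II median is 0.45 and the macrophage median 0.80, and the filled class I and class II points for males minus females, TAPBPL, ERAP1, ERAP2 and SLA-DOA, all lie below 0 with all 36 pigs in the fit.

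None of the 3 pairs of member genes passed a test of their correlation over the pigs. After the fitted group and sex effects had been removed, the correlations over 36 pigs were 0.25 for PCD1A with TAP2 (Spearman's rho 0.25), -0.32 for PCD1A with CIITA (rho -0.29) and 0.33 for TAP2 with CIITA (rho 0.28). Their permutation p-values were 0.15, 0.059 and 0.049 for r and 0.15, 0.082 and 0.10 for rho, and adjusted over the 213 pairs of a member with another member or a listed gene they were 0.26, 0.15 and 0.13 for r and 0.25, 0.18 and 0.20 for rho. Without the 2 pigs farthest from the median of the first gene the r values were 0.17, -0.45 and 0.20, and that of PCD1A with CIITA then passed (adjusted p = 0.035). Over the 32 pigs without the 4 obese ones, r was 0.34 for PCD1A with TAP2, -0.34 for PCD1A with CIITA and -0.02 for TAP2 with CIITA.

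PCD1A had the strongest partners, and they included all 5 macrophage markers and some markers of other cells. Of its 72 pairs 26 passed with a positive r and 1 with a negative r, and 28 and 1 did so over the 32 pigs. Of all 12252 other genes 9.82% had an r at least as high as the smallest positive or negative one that passed (0.41 in size), and 4.91% an r as far below 0, against which these counts are read. Over the 32 pigs that smallest r was 0.46 in size, and the shares were 8.81% and 2.91%. All 5 macrophage markers were among the positive pairs, with a median r of 0.75, and so were 7 of 15 class II genes and 5 of 7 genes of CD1 and lipid antigen handling. Some markers of other cells passed too, namely NKG7 of the T or NK cell list (r 0.66), CD209 of dendritic cells (0.63), CD22 of B cells (0.59) and PDGFRA (0.48) and LUM (0.41) of the fibroblast or progenitor list. NKG7 was the 1 of 5 T or NK cell markers that passed, and the list median was -0.23. CD2, CD8A, LCK and GNLY had an r of -0.10, -0.24, -0.23 and -0.24. Of the fibroblast or progenitor markers 2 of 5 passed (median 0.29). With MSR1, a macrophage scavenger receptor, r was 0.88 and rho 0.85 (permutation p = 1e-05 for both, the smallest that 100000 permutations can give; adjusted p = 0.00013 and 0.00021), and r was 0.83 without the 2 farthest pigs. It was 0.87 within the lean, 0.95 within the intermediate and 0.70 within the obese pigs. With CTSH r was 0.82 and with CD86 0.82, and with CD1B it was 0.26 (adjusted p = 0.22). The 5 genes most like PCD1A over all genes with a symbol were CSF3R (r 0.89), MSR1 (0.88), TYROBP (0.88), EVI2B (0.88) and CD48 (0.88). CSF3R is the receptor of granulocyte colony-stimulating factor, TYROBP an adaptor of myeloid and NK cell receptors, and EVI2B and CD48 are surface proteins of leukocytes. Their obese minus lean log2 differences were 1.67, 1.55, 0.80, 1.23 and 1.33, with adjusted p between 0.077 and 0.14, and 145 genes had an r above 0.7 with PCD1A. In the obese pigs alone r was lower for each of them, between 0.47 for CD48 and 0.76 for CSF3R, than in the lean pigs, where it was 0.87 to 0.98. This difference was not tested.

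TAP2 had weaker partners. Of its 71 pairs 8 passed, all positive, while 1.3% of all genes reached the smallest r that passed (0.42), and 6 of these were class II genes, among them HLA-DRA (r 0.55, rho 0.58, permutation p = 0.00046 and 0.00024, adjusted p = 0.0025 and 0.0024; r 0.58 without the 2 farthest pigs) and its neighbours in the MHC region SLA-DQB1 (0.53) and SLA-DMB (0.49). Of the 11 class I genes 0 passed, and r with TAPBP was 0.38 (adjusted p = 0.070). Without the 4 obese pigs 1 of the 71 pairs passed, with GM2A (r 0.51, adjusted p = 0.026), and HLA-DRA was at 0.46 (adjusted p = 0.056). The rank correlation with GM2A did not pass (rho 0.43, adjusted p = 0.084). Of all genes 0.114% had an r at least that of GM2A, and 0.286% an r as far below 0. The most alike genes with a symbol were PMAIP1 (r 0.62), GM2A (0.57), TNFSF13B (0.57), UBA7 (0.57) and BMP1 (0.56), and 0 genes had an r above 0.7. PMAIP1 is a pro-apoptotic BCL2 family member, TNFSF13B the B cell activating factor BAFF, UBA7 the activating enzyme of the interferon-induced modifier ISG15, and BMP1 a procollagen protease.

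For CIITA the correlations turned on the 4 obese pigs, which lie apart as a cluster too small for a correlation of its own. Over the other 32 pigs r was 0.08 with IRF1 (rho 0.07, permutation p = 0.68 and 0.71; IRF1 is one of the genes whose sum chose the 4 pigs, so leaving them out also takes away the top of its range), 0.25 with TAPBP and 0.46 with HLA-DRA (rho 0.51, adjusted p = 0.057 for r and 0.026 for rho). Over all 36 pigs the same values were 0.71, 0.73 and 0.73. Of 70 pairs 21 passed with a positive and 2 with a negative r over all pigs, and over the 32 pigs 1 of each did. The smallest r that passed, 0.43 and 0.55 in size, was reached by 3.86% of all genes as positive and 2.29% as negative over all pigs, and by 0.318% and 0.204% over the 32 pigs. These were PECAM1 (r 0.55, adjusted p = 0.0089), a marker of endothelial cells, and CD209 (r -0.62, adjusted p = 0.0022), a lectin of dendritic cells and macrophages. Among the genes with a symbol, those most like CIITA over 36 pigs were IL2RB (r 0.75), CCL5 (0.75), FUNDC1 (0.73), TAPBP (0.73) and TBX21 (0.73), and over the 32 pigs these were 0.51, 0.47, 0.31, 0.25 and 0.34. They stood at ranks 5, 6, 8, 9 and 10 when genes without a symbol were counted. IL2RB is a chain of the interleukin 2 receptor, CCL5 a chemokine of T cells, TBX21 the transcription factor T-bet and FUNDC1 a receptor of mitophagy. The plot of member genes against a partner shows the 3 patterns.

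**Figure D4:**
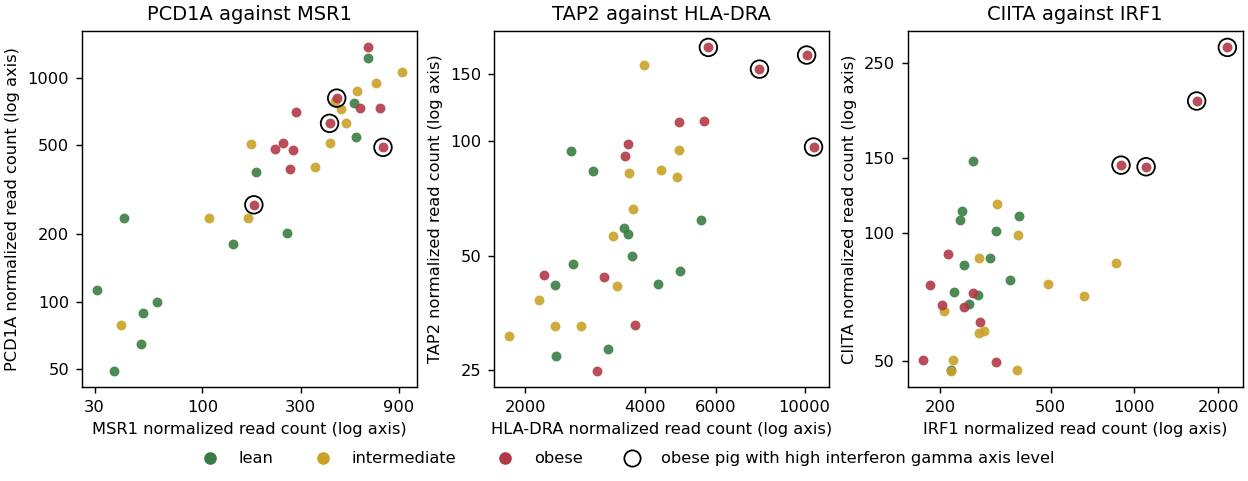
Normalized read counts (log axes) of PCD1A against MSR1, TAP2 against HLA-DRA and CIITA against IRF1 in each of 36 pigs, with the 4 obese pigs of high interferon gamma axis level ringed. PCD1A and MSR1 have an r of 0.87 within the lean, 0.95 within the intermediate and 0.70 within the obese pigs, while the ringed pigs, chosen by a sum that includes IRF1, hold its 4 highest levels, and CIITA and IRF1 have an r of 0.08 over the other 32 pigs.

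Connectivity, the sum over genes of the absolute correlation raised to the power 9, was computed separately in the 12 lean and the 12 obese pigs for the 8511 genes with an SD above 0.25, and divided by the largest value in that group. PCD1A was at 0.71 in lean pigs, at rank 139 of 8511, and at 0.16 in obese pigs, at rank 5427. With 1 pig left out the ranks were 19 to 1084 in lean and 4154 to 7195 in obese pigs. The authors had picked PCD1A from these same pigs for high connectivity in lean and low connectivity in obese pigs. The contrast is therefore not independent of that choice. CIITA had the opposite order, 0.095 (rank 6799) in lean and 0.57 (rank 629) in obese pigs. Without the 4 obese pigs its value in obese pigs was 0.14 (rank 6500, 8 pigs). TAP2 was low in both, at 0.072 (rank 7557) and 0.076 (rank 7621). With 12 pigs a group the values have wide errors, with jackknife SEs of 0.38 for PCD1A in lean pigs and 0.31 for CIITA in obese pigs, and no test was made.

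**Figure D5:**
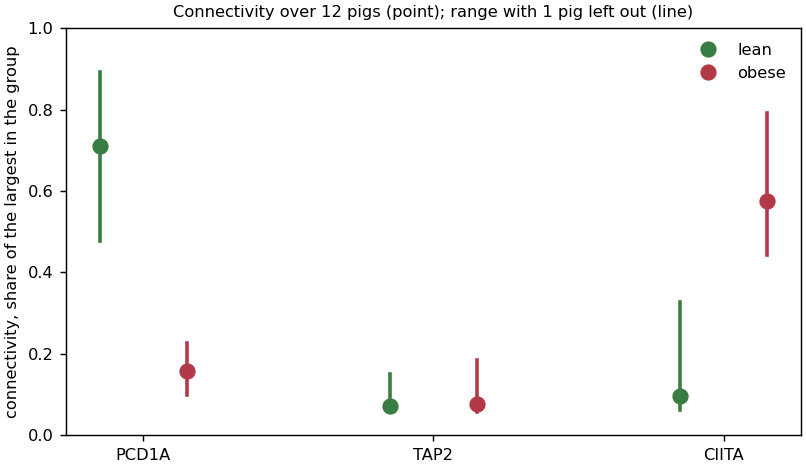
Connectivity of PCD1A, TAP2 and CIITA as a share of the largest in the group, in lean and obese pigs, with points for all 12 pigs and lines for the range with 1 pig left out. PCD1A is at 0.71 in lean and 0.16 in obese pigs, and CIITA at 0.095 and 0.57.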

How the data were processed

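The authors mapped paired-end reads to Sscrofa10.2 with STAR, counted them with HTSeq, removed low genes, estimated DESeq size factors and applied limma's voom, and their methods also name a correction for gender. The deposited unit is log2, as voom gives it with the size factor in the place of the library size (0.5 added to the reads and 1 to the size factor). Even the least regular library gave whole reads, within 0.1, for 99.9% of its genes, so no correction for sex was seen in the deposited values, and normalized counts are these reads divided by the size factor. Symbols were known for 8320 of 12253 genes. The deposited values were fitted with limma 3.58.1 in R 4.3.3 (intensity trend; group and sex), with Benjamini-Hochberg correction at 0.05, and a p measures the spread between pigs. All tests, the permutations among them, treat the pigs as independent and take no account of full sibs. A log2 difference here is on the deposited scale, which corrects depth only in part. Correlations used 100000 permutations in Python 3.11.15 with numpy 2.4.6 and scipy 1.17.1. The members and lists were chosen with earlier results of these data known. Named genes are the members, at most 4 genes of a list by the moderated t for obese against lean, listed genes that passed any comparison, and the 5 genes most like each member. HLA-DRA, CD1B, NFYC, NFYB, PSME2, SPPL2A, CTSB, SLA-DMA, SLA-DMB, the further correlated pairs and the marker genes were singled out after their values were seen. The scripts were tested on simulated data. 1 listed gene is not reported singly here. No sequences were used, and neighbouring genes are in the RefSeq gene order of Sscrofa11.1.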

Additional observations from a re-analysis of the deposited data

Results flagged for a closer look

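CIITA in obese males had 1 value far from the rest. Obese replicate 6 had 144 normalized counts, and its gap to the nearest of the other 5 obese males was 0.698 of the range of the log2 values in these 6 pigs. It is the only male among the 4 obese pigs that stood apart in the interferon gamma axis. The check was made for each of the 3 genes in each sex of each group, 18 sets of 5 to 7 pigs of which 1 was picked out, and chance picks out about 1 in 20 such sets.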

How the results depend on the processing

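Of 138 log2 differences of PCD1A, TAP2 and CIITA refitted under other settings, 130 kept their direction and stayed above an adjusted p of 0.05, and 8 changed sign. The sign changed in males alone for CIITA (obese minus lean -0.36; trend -0.19) and TAP2 (intermediate minus lean -0.14), and in females alone for CIITA (intermediate minus lean 0.027) and PCD1A (obese minus intermediate -0.060). Without the 4 obese pigs, an alternative chosen after seeing the data, it changed for CIITA in obese minus lean (-0.43), obese minus intermediate (-0.058) and the trend (-0.23). With 1 pig left out the obese minus lean difference was 1.29 to 1.71 for PCD1A, which passed in 2 of 36 fits, and -0.088 to 0.11 for CIITA, and the trend was 0.64 to 0.85 and -0.048 to 0.061. Connectivity with 1 pig left out was 0.061 to 0.33 for CIITA in lean and 0.056 to 0.19 for TAP2 in obese pigs, the highest values being without lean replicate 2 and obese replicate 12, and that of CIITA was 0.14 without the 4 obese pigs. The filter that removed the lowest 25% of genes dropped TAP2 and CIITA, so it gave no value for them.

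The number of genes called for obese against lean was 5, and 3 without sex, 12 without the intensity trend, 1 with the low genes removed, 9 with each pig's median subtracted, 9 with the whole size factor (each 2 higher and 7 lower, against 0 and 5), 17 with voom weights, 2 in males, 21 in females, 17 with lean and obese pigs only and 0 without the 4 obese pigs (limma, 1674 genes at an unadjusted p under 0.05). With 1 pig left out it was 1 to 292, with 292 without lean replicate 2 and 204 without lean replicate 8. For the trend it was 3, and 5 without the intensity trend, 6 with medians subtracted (1 higher and 5 lower, against 0 and 3), 24 with voom weights, 21 in females, 7 without the 4 pigs and 1 to 274 with 1 pig left out. For males against females it was 268, 61 without the 4 pigs and 147 to 546 with 1 pig left out. The interaction gave 1, 2 without the intensity trend, 0 with medians subtracted, the whole size factor, voom weights, lean and obese pigs only or without the 4 pigs, and 0 to 33 with 1 pig left out. Intermediate against lean gave 0 to 6 with 1 pig left out. For obese against lean the higher and lower calls were 18 and 3 in females, 9 and 8 with voom weights, 191 and 101 without lean replicate 2 and 89 and 115 without lean replicate 8. The cause of these changes was not tested.

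The correlation of PCD1A with TAP2 was 0.41 (adjusted p = 0.028) on the deposited values with nothing removed and -0.022 in obese pigs. That of PCD1A with CIITA was -0.45 without the 2 farthest pigs and 0.17 in intermediate pigs. That of TAP2 with CIITA was 0.45 (adjusted p = 0.017) on the deposited values, -0.020 without the 4 pigs, -0.39 in lean and -0.034 in intermediate pigs. No paired analysis was possible because the labels give no replicate numbers shared between groups. TAP2 and CIITA rest on 26 to 288 reads per pig, so counting error adds to their spread.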
